A study of Homo sapiens with 6 samples.

Results

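Histone genes were followed in HEK293, an established cell line of human embryonic kidney origin, without treatment and in medium with 50 mM sodium salicylate, the salt of the compound that aspirin turns into in the body. Total RNA was taken from untreated cells, labelled as 0 min negative controls, and after 30 min and 60 min with the salt, and 2 Illumina bead arrays were run for each of the 3 groups. There was no labelled mock treatment and no other sodium salt, so handling, time and added salt cannot be told apart from salicylate. Nothing in the labels tells whether both samples of a group were grown separately. The p-values therefore reflect the spread of these samples alone, and that spread may be technical. Members were the probes whose gene symbol in the platform annotation belongs to a histone gene of the H1, H2A, H2B, H3 or H4 families or to a variant (H2AZ, H2AX, H2AJ, H3-3 or MACROH2A). In the counts by class below, the linker histone genes H1-10, H1-7 and H1-8 were also placed with the variants. They also had to be detected, with a detection p-value under 0.05 on at least 2 of the 6 arrays. The platform held 95 such probes for 80 genes, plus a probe annotated to both H3C11 and H3C6 that is counted among the 95. Of them 46 probes passed (48.4%), for 39 genes and the shared H3 probe, and they were 46 of the 22377 detected probes among 47323 in all.

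Histones are the proteins around which DNA is wound in nucleosomes, whose core holds H2A, H2B, H3 and H4, while H1 binds the linker DNA between cores. Most of their genes lie in clusters, are transcribed chiefly while DNA is replicated, and give mRNAs without introns that usually end in a stem-loop in place of a poly(A) tail. Most variant genes stand outside the clusters, are transcribed through the cell cycle and give polyadenylated mRNAs. Cluster genes of a class are near copies of each other, so a probe named for 1 gene may also have bound the RNA of others. The RNA was primed with oligo(dT), which favours RNAs with a poly(A) tail. The signal of a cluster gene therefore depends on how much of its RNA could be primed, and the part of this in the results was not tested. In bulk RNA, fewer cells making a transcript and less transcript per cell cannot be told apart either.

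Detection differed between classes of histone gene. Of the 16 variant probes on the platform 13 passed, and all 13 of these were detected on all 6 arrays. Among the cluster probes 33 of 79 passed, namely 3 of 6 for H1, 8 of 19 for H2A, 11 of 23 for H2B, 5 of 16 for H3 and 6 of 15 for H4. Of the 49 probes that did not pass, 43 were detected on no array and 6 on a single array. The 5 probes just inside the limit, detected on 2 arrays, had a mean intensity between 140.3 and 152, against 132 to 152 for the 6 just outside it. Those inside were H1-3, H2BC17, H2BC8, H2BC9 and H4C11, and those outside were H1-4, H2AC13, H3C12, a second H3C13 probe, H4C15 and H1-7. H2BC8 and H4C11 passed through the 60 min arrays alone, so they had to stand higher there.

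The 6 arrays were alike as a whole. They detected 20726 to 21740 probes each and 37 to 44 of the histone probes. The normalized values of any pair of arrays correlated across probes at between 0.991 and 0.996. Of 9 genes fixed as typical of the line, among them keratins and proliferation genes, 8 were detected. Of these 8, 2 rose at 60 min against the controls and none fell: MKI67, a proliferation marker, by 0.43 (log2, adjusted p = 0.00693) and KRT8, a keratin, by 0.26 (0.0131). That is 25%, beside 19.7% of all genes with an adjusted p under 0.05 at 60 min, 8.94% higher and 10.8% lower. From 30 to 60 min 3 rose and none fell, beside 7.5% of all probes higher and 7.98% lower at the same threshold. These counts were not tested. Of 10 genes typical of other cell types, 9 had a probe and 4 of these were detected (CD68, ACTA1, ALB and LUM), while PTPRC, CD3E, PECAM1, HBB and COL1A2 gave no tested value. Their summed level was 721 to 739 in the controls, 774 to 844 at 30 min and 748 to 810 at 60 min. LUM, a gene of connective tissue, was detected on the 60 min arrays alone, and so had to be higher there. ACTA1, the skeletal muscle actin, stood at 0.68 at 30 min against the controls (log2, adjusted p = 0.0897) and fell by 0.67 from 30 to 60 min (0.0065). The part of these genes in the histone results was not tested.

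The 4 promoters printed next belong to cluster genes whose probes differed at 60 min: H2BC5, with the largest fall, H2BC12, another H2B gene that fell, H4C12, with the largest rise, and H2AC20, a gene of the chromosome 1 cluster that rose. Each is the 250 bases before the gene's start, 5′ to 3′ on the gene's strand, from RefSeq on GRCh38.p14. Where more than a single start was listed for a gene, as for H2BC12, only the window of the first is printed and counted here. Capitals mark 3 letter strings known from histone promoters, read on either strand: TATAAA (the TATA box), CCAAT (bound by NF-Y) and TTTGCAT (part of the octamer bound by POU2F1).
H2BC5, chr6:26157871-26158120, plus strand: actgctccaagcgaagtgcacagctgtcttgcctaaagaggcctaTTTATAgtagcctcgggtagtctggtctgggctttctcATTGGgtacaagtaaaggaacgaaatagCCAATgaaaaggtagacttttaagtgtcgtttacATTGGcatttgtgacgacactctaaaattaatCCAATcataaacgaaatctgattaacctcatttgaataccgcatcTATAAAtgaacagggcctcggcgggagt
H2BC12, chr6:27146859-27147108, minus strand: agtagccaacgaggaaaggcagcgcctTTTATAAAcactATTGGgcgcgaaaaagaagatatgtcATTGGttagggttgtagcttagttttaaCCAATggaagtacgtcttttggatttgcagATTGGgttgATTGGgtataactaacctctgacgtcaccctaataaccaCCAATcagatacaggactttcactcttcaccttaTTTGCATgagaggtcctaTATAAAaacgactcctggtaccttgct
H4C12, chr6:27831561-27831810, minus strand: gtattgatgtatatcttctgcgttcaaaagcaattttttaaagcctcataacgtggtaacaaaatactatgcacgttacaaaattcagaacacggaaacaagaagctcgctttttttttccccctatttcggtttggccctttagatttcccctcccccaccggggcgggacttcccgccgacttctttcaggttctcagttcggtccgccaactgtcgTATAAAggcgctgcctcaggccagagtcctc
H2AC20, chr1:149886668-149886917, plus strand: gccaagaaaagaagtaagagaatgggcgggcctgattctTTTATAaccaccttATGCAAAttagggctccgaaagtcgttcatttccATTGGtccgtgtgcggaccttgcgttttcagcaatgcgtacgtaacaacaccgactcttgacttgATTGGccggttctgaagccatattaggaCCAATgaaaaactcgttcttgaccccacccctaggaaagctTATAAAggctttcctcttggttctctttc
Counted on both strands, with overlapping matches included, the H2BC5 window held 2 TATAAA and 4 CCAAT strings and the H2BC12 window 3 and 6. The H2AC20 window held 2 and 3, and H2BC12 and H2AC20 each held 1 TTTGCAT. The H4C12 window held 1 TATAAA and none of the other strings. A match is a description of the letters only.

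After 60 min of salicylate, H2BC5, H2BC12, H2AC25 and the shared H3C11 and H3C6 probe were lower than in untreated cells, while H4C12, H2AC20, H2AJ, H1-10 and MACROH2A2 were higher. Thus 9 of 46 histone probes were called (19.6%), 5 higher and 4 lower, where a call is a Benjamini-Hochberg adjusted p under 0.05 over all detected probes in the limma fit. The same comparison called 16.3% of all 22377 probes, 7.74% as higher and 8.54% as lower, so the share of histone probes called was near the background. The median log2 difference of the histone probes was -0.0047, beside 0.0013 for all probes. The median of the absolute differences was 0.216, beside 0.162 for all probes. At an unadjusted p under 0.05 there were 17 histone probes. The count fell to 5 without control array 1 and to 5 without control array 2, where the share of all probes called fell to 6.52% and 5.98%. It fell to 4 when arrays were scaled to a common median in place of quantile normalization (8.1% of all probes) and to 5 when the variance was not allowed to follow the intensity (4.85%).

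**Figure D1:**
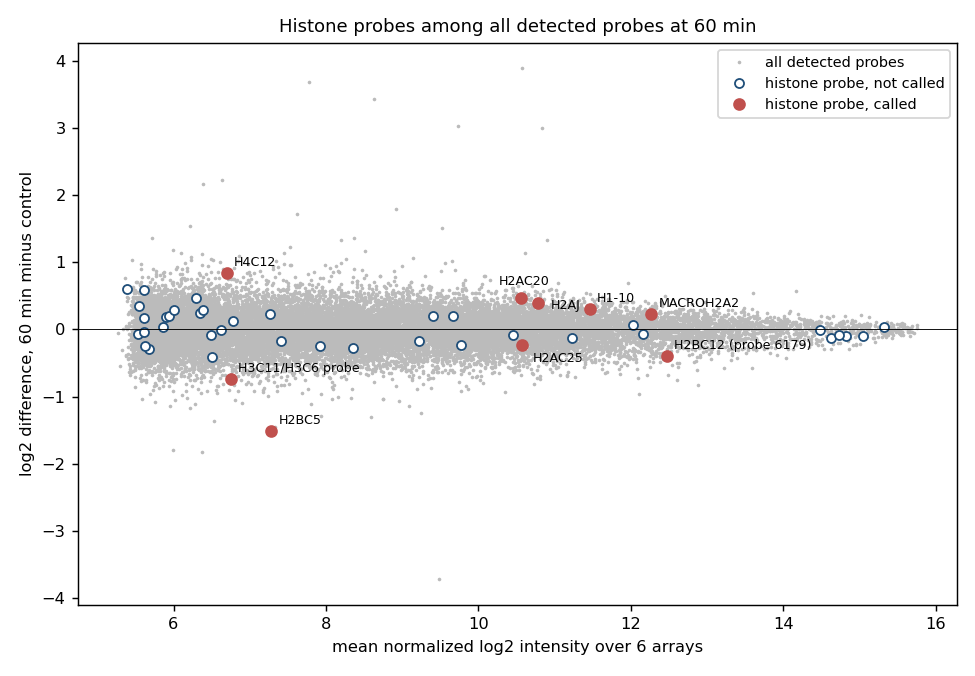
Each point is a detected probe, with its mean normalized log2 intensity over 6 arrays on the x axis and its log2 difference at 60 min against the controls on the y axis, and histone probes stand out in colour. Most histone probes lie among the grey mass of other probes, with H2BC5 far below it at -1.51 and H4C12 above most of it at 0.84.

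H2BC5, a cluster gene for histone H2B on chromosome 6, fell the most. Its normalized log2 intensity was 7.92 and 7.70 in the controls, 7.84 and 7.64 at 30 min, and 6.25 and 6.34 at 60 min. Both 60 min arrays lay more than 1 log2 unit below the other 4, whose groups overlapped. The log2 difference at 60 min was -1.51 ± 0.14 (SE of the fit, n = 2 arrays a group), which is 2.85-fold lower, with an adjusted p of 7.25e-05. It ranked as number 4 from the bottom among the 22377 probes. Without background correction the difference was -0.84, and the call was kept under each of 16 other settings and omissions. The other 2 H2BC5 probes had intensities between 101.1 and 113 and were detected on no array, so the fall rests on the single probe ILMN_1651496.

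H2BC12, another H2B gene on chromosome 6, had 2 detected probes. On ILMN_1796179 the values were 12.63 and 12.65 in the controls, 12.57 and 12.54 at 30 min, and 12.29 and 12.19 at 60 min. The 60 min arrays were the lowest and the groups did not overlap. The difference at 60 min was -0.40 ± 0.06 (log2, 1.32-fold lower, adjusted p = 0.00104), and it was kept under each of 16 other settings and omissions. On ILMN_1813314 the difference was -0.23 ± 0.09 and did not pass (adjusted p = 0.0912).

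The H3 probe ILMN_1881081 is annotated to both H3C11 and H3C6, cluster genes for histone H3. Its values were 6.87 and 6.95 in the controls, 7.36 and 6.98 at 30 min, and 6.04 and 6.30 at 60 min. The 60 min arrays were below all others, and the difference from the controls was -0.74 ± 0.17 (log2, 1.67-fold lower, adjusted p = 0.0126). It was -0.35 without background correction, and the call was lost without control array 1 (adjusted p = 0.0629), without control array 2 (0.093) and without the variance trend (0.0581). The probe named for H3C6 alone stood at 0.29 at 60 min (adjusted p = 0.305), and the probe named for H3C11 alone was detected on no array. Which gene's RNA the shared probe followed cannot be told from these arrays.

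H2AC25, an H2A gene on chromosome 1, measured 10.68 and 10.55 in the controls, 10.77 and 10.66 at 30 min, and 10.38 and 10.39 at 60 min. Both 60 min arrays were the lowest. The fall of 0.23 on the log2 scale had an adjusted p of 0.0418, close to the threshold. It was lost in 10 of 16 other settings and omissions, which include the omission of any single array, over which the adjusted p ran from 0.0519 to 0.286.

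H4C12 on chromosome 6 encodes histone H4 and rose the most. Its values were 6.37 and 6.44 in the controls, 6.43 and 6.48 at 30 min, and 7.16 and 7.32 at 60 min. The 60 min arrays were above all 4 others, while the 30 min arrays overlapped the controls. The log2 difference was 0.84 ± 0.15, or 1.78-fold higher, with an adjusted p of 0.00328. It ranked as number 83 from the top among all probes. Without background correction the difference was 0.43, and the call was kept under each of 16 other settings and omissions.

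H2AC20, an H2A gene in the chromosome 1 cluster, measured 10.47 and 10.32 in the controls, 10.38 and 10.41 at 30 min, and 10.83 and 10.91 at 60 min. The 60 min arrays stood apart above the rest, and the log2 difference was 0.47 ± 0.07 (1.39-fold higher, adjusted p = 0.00134). H2AJ, on chromosome 12, encodes an H2A variant made also outside S phase. It measured 10.64 and 10.65 in the controls, 10.71 and 10.62 at 30 min, and 11.04 and 11.03 at 60 min, again with both 60 min arrays above all others. The difference was 0.39 ± 0.06 (log2, 1.31-fold higher, adjusted p = 0.00197). With median scaling both differences kept their direction and missed the threshold, H2AC20 at 0.37 (adjusted p = 0.0718) and H2AJ at 0.29 (0.175).

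H1-10, the gene of a replication-independent linker histone on chromosome 3, measured 11.40 and 11.35 in the controls, 11.43 and 11.24 at 30 min, and 11.73 and 11.61 at 60 min. Both 60 min arrays were above the others. MACROH2A2, on chromosome 10, encodes an H2A variant with a large added domain. It measured 12.15 and 12.23 in the controls, 12.22 and 12.15 at 30 min, and 12.46 and 12.39 at 60 min, so here too the 60 min arrays were the highest. The log2 difference at 60 min was 0.30 ± 0.07 for H1-10 (adjusted p = 0.0151), and 0.23 ± 0.06 for MACROH2A2 (adjusted p = 0.0193). Each was lost in 5 of 16 other settings and omissions, among them median scaling and the fit without the variance trend. Over all 16 the largest adjusted p was 0.302 for H1-10 and 0.338 for MACROH2A2. Without control array 1 the adjusted p was 0.0702 for H1-10 and 0.157 for MACROH2A2, and without control array 2 it was 0.111 and 0.0614. Without 60 min array 1 it was 0.065 and 0.0761.

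**Figure D2:**
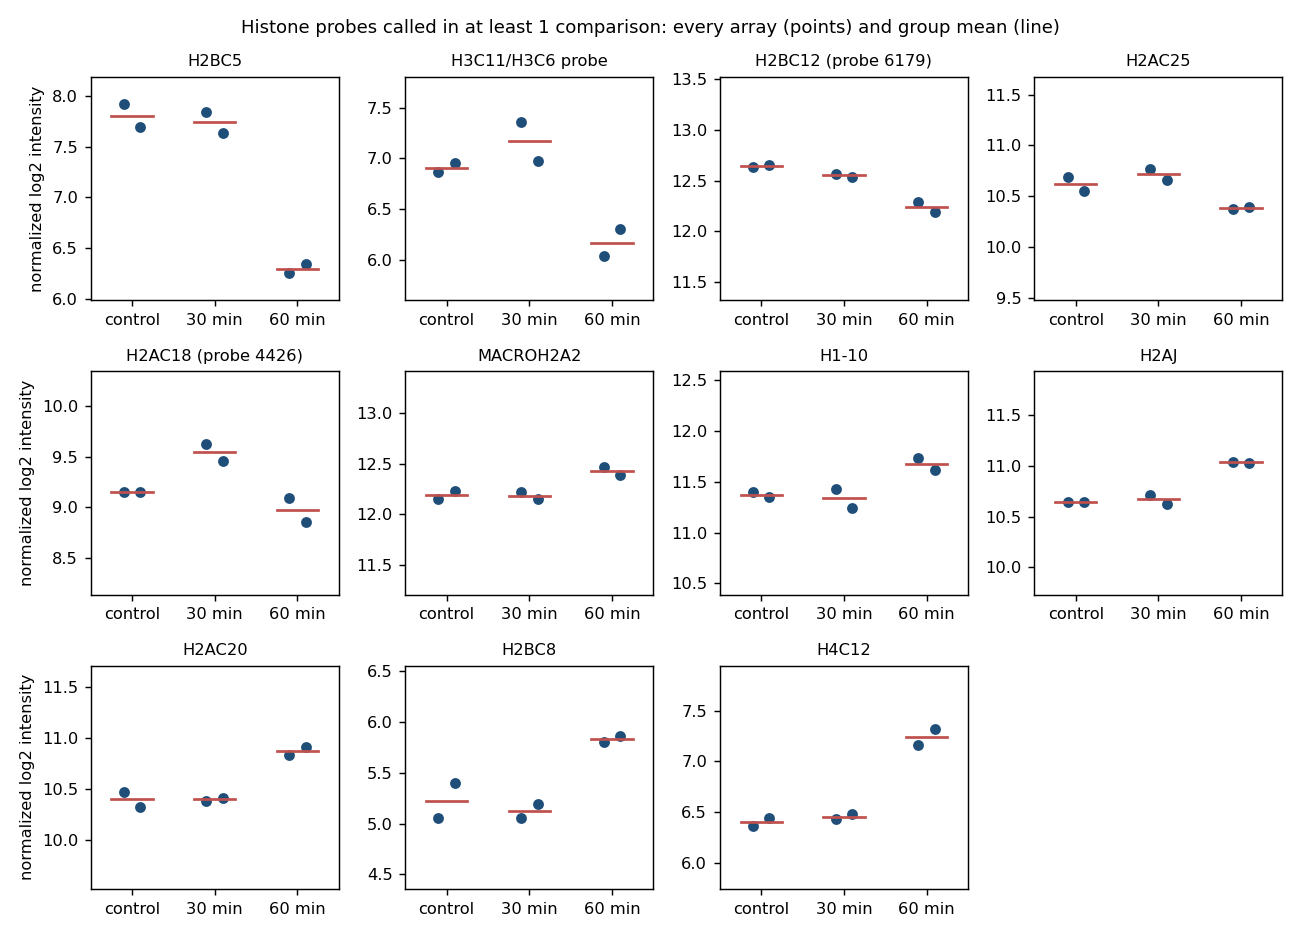
Points are the normalized log2 intensities of every array and lines the group means, in a panel for each histone probe that passed in at least 1 of the 3 comparisons, with the controls, 30 min and 60 min along the x axis. In the H2BC5 panel the 60 min arrays lie at 6.25 and 6.34, below all other arrays, and in the H4C12 panel they lie at 7.16 and 7.32, above all others.

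At 30 min no histone probe was called, beside 0.232% of all probes (52 of 22377, with 0.107% higher and 0.125% lower). In the limma fit 3 histone probes had an unadjusted p under 0.05, and the lowest adjusted p was 0.224. The median log2 difference was -0.0059, beside 0.0013 for all probes, and the median of the absolute differences was 0.0743, beside 0.0969. The differences lay between -0.32 for H1-1 and 0.39 for a probe of H2AC18. The last was the only histone probe to pass at 30 min under another setting, with an adjusted p of 0.0408 when only the 4 arrays compared were fitted, 0.0456 without 60 min array 1 and 0.0429 without 60 min array 2.

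H2AC18 differed between 30 and 60 min, while its 60 min arrays did not pass against the controls. This H2A gene on chromosome 1 has a near-identical neighbour, H2AC19. Its probe ILMN_2144426 measured 9.15 in both controls, 9.63 and 9.45 at 30 min, and 9.10 and 8.85 at 60 min. The 30 min arrays were the highest, and the 60 min arrays were below the controls. Against the controls the log2 difference was 0.39 ± 0.10 at 30 min (adjusted p = 0.224) and -0.18 at 60 min (adjusted p = 0.257), and from 30 to 60 min it was -0.57 ± 0.10 (1.48-fold lower, adjusted p = 0.00338). The second H2AC18 probe, detected on 3 arrays, gave -0.11 from 30 to 60 min. The H2AC19 probe measured 9.53 in both controls, 9.86 and 9.64 at 30 min, and 9.71 and 9.75 at 60 min, and its difference from 30 to 60 min was -0.02 (adjusted p = 0.917). The probes named for these near copies thus gave unlike values, and their difference was not tested.

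From 30 to 60 min 11 of 46 histone probes passed (23.9%), 6 higher and 5 lower, beside 15.5% of all probes, 7.5% as higher and 7.98% as lower. This comparison uses the same 60 min arrays as the comparison with the controls, so the calls are not independent of those above. The log2 difference was -1.44 for H2BC5 (adjusted p = 0.000171), -0.998 for the shared H3 probe (0.00325), -0.33 for H2AC25 (0.0094) and -0.31 for H2BC12 (0.00469). It was 0.78 for H4C12 (0.00535), 0.47 for H2AC20 (0.00172), 0.36 for H2AJ (0.0034), 0.34 for H1-10 (0.00968) and 0.24 for MACROH2A2 (0.0177). Beside H2AC18, the remaining probe was H2BC8, an H2B gene on chromosome 6, at 5.05 and 5.40 in the controls, 5.05 and 5.19 at 30 min, and 5.80 and 5.86 at 60 min. It was detected on the 60 min arrays alone, and the rule that chose the probes required it to differ, so 10 of the 11 calls do not rest on that rule. It was at least 1.11-fold higher at 60 min than at 30 min (adjusted p = 0.0491), where the bound sets its 60 min mean against the lowest detected signal of each 30 min array. The call was lost in 8 of 13 other settings and omissions, among them each omission of a control or 30 min array.

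**Figure D3:**
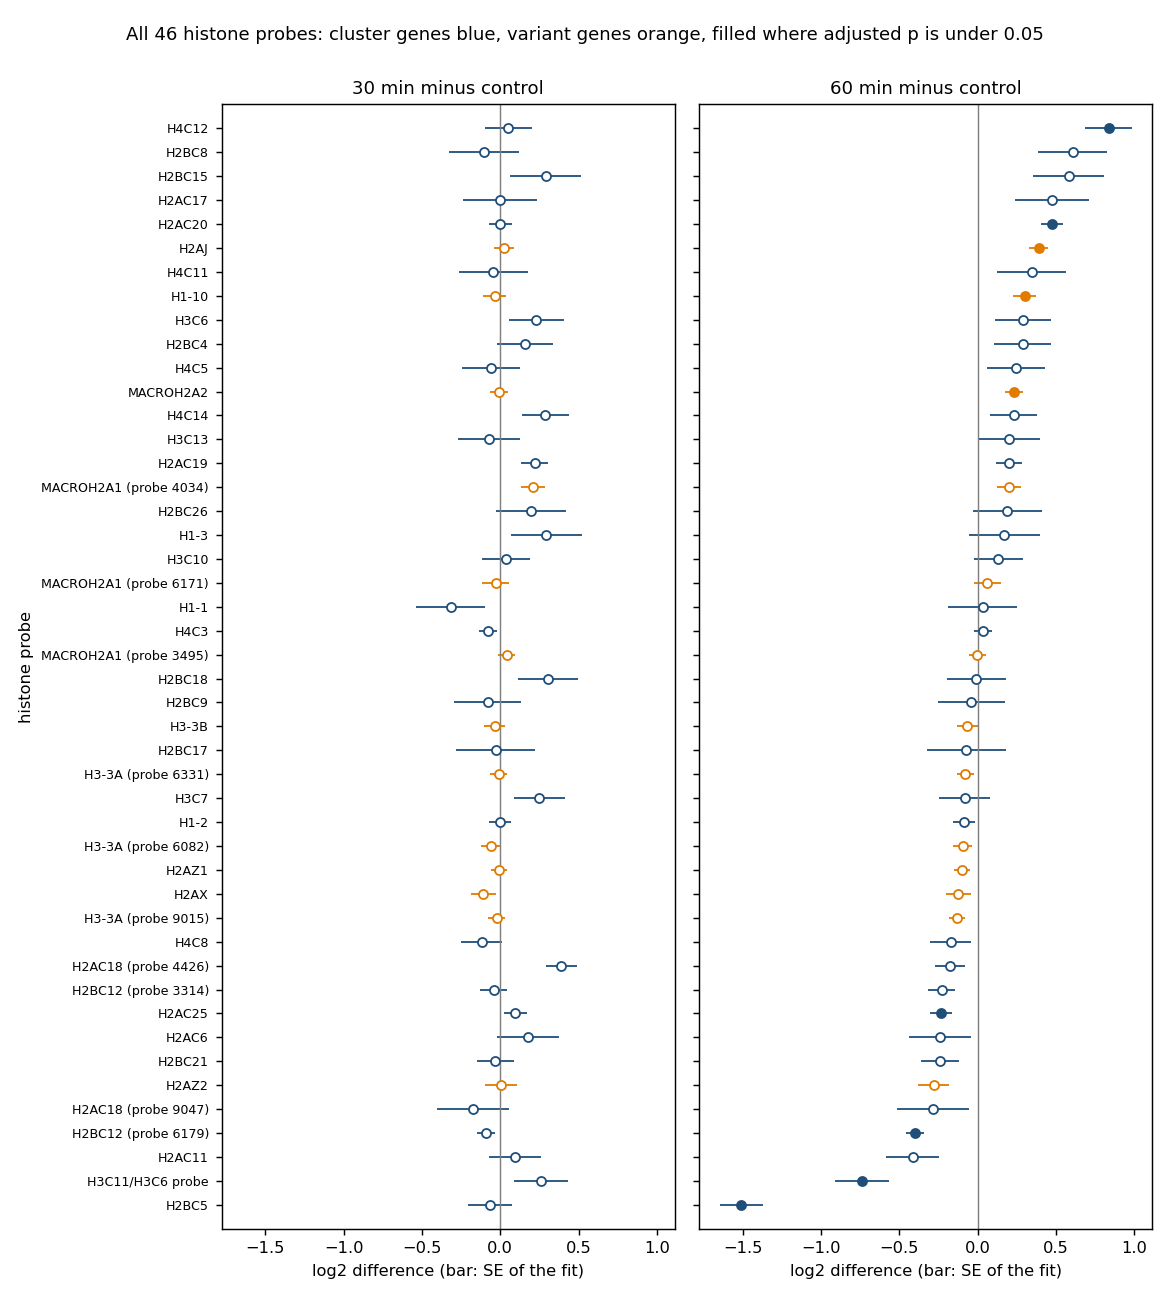
Points are the log2 differences of all 46 histone probes, with bars for the SE of the fit and a panel for each comparison. Cluster genes are blue and variant genes orange, and filled points passed the threshold. No point is filled at 30 min, and at 60 min the values run from -1.51 for H2BC5 to 0.84 for H4C12 with most near 0.

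By class, the called probes at 60 min were few and ran in both directions. In the clusters 6 of 33 probes were called (18.2%), 2 higher (H4C12 and H2AC20) and 4 lower. Among variants, H1-10 included, 3 of 13 were called (23.1%), all higher. With median scaling none of these 3 calls was kept, and the 4 histone probes called were of cluster genes, beside 8.1% of all probes. Of all probes 16.3% were called in either direction, 7.74% as higher and 8.54% as lower. All 13 variant probes were detected on all 6 arrays, and a fit of only such probes called 20.4% of 18303. The difference between the classes was not tested. Of the 3 H1 cluster probes none passed, with H1-1 at 0.03 and H1-2 at -0.09 on the log2 scale and H1-3 not above background in the controls. Of the 11 H2B probes 2 passed, both lower. H2BC15 and H2BC8 were not above background in the controls, and at 60 min they were at least 1.18-fold (adjusted p = 0.1) and 1.12-fold (0.0846) higher, short of the threshold. Such a bound sets the 60 min mean against the lowest detected signal of each control array. The bound leaves out the spread between arrays, so it does not establish a rise where the threshold was missed. H2BC8 was detected on the 60 min arrays alone and so had to be higher there. Of the 8 H2A probes 2 passed, H2AC20 and H2AC25, in opposite directions. H2AC11 at -0.42 (adjusted p = 0.116) and H2AC17 at 0.47 (0.202) did not pass. Of the 6 H4 probes H4C12 alone passed. H4C3, H4C5, H4C8 and H4C14 lay between -0.17 and 0.25. H4C11, detected on the 60 min arrays alone, likewise had to be higher there. Its bound was at least 1.09-fold, and it did not pass (adjusted p = 0.324). Of the 5 H3 probes the shared probe alone passed, and H3C6, H3C7, H3C10 and H3C13 lay between -0.08 and 0.29.

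The widely used replacement histones did not pass at either time. The 3 probes of H3-3A, which with H3-3B encodes the H3 put into chromatin outside replication, stood at -0.13, -0.10 and -0.08 at 60 min (log2), and H3-3B at -0.07. H2AZ1 stood at -0.10 and H2AZ2 at -0.28 (adjusted p = 0.0754). They encode H2A.Z, a variant found around transcription start sites. H2AX, whose protein is phosphorylated at DNA breaks, stood at -0.12. The 3 detected probes of MACROH2A1 lay between 0.00 and 0.20, beside the rise of 0.23 in MACROH2A2.

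Several histone genes lie head to head with a partner and share the stretch between them. Among the genes with a probe, 12 pairs had overlapping upstream windows on opposite strands, and in 4 pairs both genes were detected. In 2 of these 4 pairs a partner, H2AC6 or H2BC17, was not above background on either 60 min array, so no fold is given for it. In the other 2 pairs the 60 min differences had opposite signs. H2AC20 stood at 0.47 (called) and H2BC21 at -0.24 (adjusted p = 0.201), with windows that overlap by 235 of 250 bases. H2AC25 stood at -0.23 (called) and H2BC26 at 0.19 (0.62), with an overlap of 229 bases. H2BC4, the partner of H2AC6, was at 0.29 and H2AC17, the partner of H2BC17, at 0.47, and neither passed. The difference between partners was not tested.

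The promoter strings were common in histone promoters at large. Among 45 promoters of 38 detected histone genes, TATAAA was present in 57.8%, CCAAT in 80.0% and TTTGCAT in 28.9%, beside 10.7%, 32.0% and 3.94% of all 35116 RefSeq promoter windows of this length. They were less common in the 13 windows of detected variants (30.8%, 69.2% and 7.69%) than in the 32 of detected cluster genes (68.8%, 84.4% and 37.5%), with no test of the difference. Of the 5 windows of the 5 genes called higher at 60 min, 3 held TATAAA, 2 CCAAT and 1 TTTGCAT. Of the 5 windows of the 3 singly named genes called lower, 4, 5 and 2 held them. These numbers are too small to compare.

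The genes that act on histone mRNA and histone proteins were read from 3 further lists, with each gene represented by its detected probe of highest mean. At 30 min none of their genes passed, beside 0.319% of all genes (0.151% higher and 0.167% lower), and 1, 2 and 2 genes had an unadjusted p under 0.05 in the limma fit. At 60 min 19.7% of all 12547 genes passed, 8.94% higher and 10.8% lower. Among factors that transcribe, trim or degrade histone mRNAs, 6 of 18 tested genes passed (33.3%), 1 higher and 5 lower. The falls on the log2 scale were -0.43 for CSTF2T (adjusted p = 0.0461), -0.34 for CPSF2, a subunit of the 3′ end cleavage complex whose other probe stood at -0.16, -0.28 for ERI1, an exonuclease that trims the histone stem-loop, and -0.27 for SRRT, which links the RNA cap to 3′ processing (0.00434). SLBP, which binds the stem-loop, fell by 0.23 on 1 probe (adjusted p = 0.0223) and stood at -0.04 on its other probe, and CPSF3, the cleavage enzyme, rose by 0.21 (0.0451). SLBP and CPSF3 were named after their values were seen. The median of the list was -0.10, beside -0.0082 for all genes.

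Among histone chaperones, which carry histones to and from DNA, 10 of 27 tested genes passed at 60 min (37%), 6 higher and 4 lower, with a median of 0.0018. UBN1 at -0.48 (adjusted p = 0.00261) and UBN2 at -0.46 (-0.26 on its other probe), subunits of the HIRA complex that deposits H3.3, were lower. HIRA itself stood at -0.45 (adjusted p = 0.201) and CABIN1, another subunit, at 0.04 (0.799), and neither passed. HIRA and CABIN1 were named after their values were seen. SPTY2D1 was also lower at -0.36, and RBBP7, a histone-binding protein of several complexes, was higher at 0.36 (0.0116). Among genes of DNA replication and S phase entry 9 of 32 passed (28.1%), 4 higher and 5 lower, with a median of -0.03. E2F2, a transcription factor for S phase genes, stood at -0.44 (adjusted p = 0.00103), UHRF1, a reader of hemimethylated DNA, at -0.30 (-0.45 on its other probe) and FEN1, a flap nuclease, at -0.29 (-0.03 on its other probe). CCNE1, the cyclin of S phase entry, stood at 0.34 (0.00455), with its other probe at 0.14. These counts moved with single arrays, as did the share of all probes called (16.3% with all arrays). The counts are by gene and the shares set beside them below are by probe, an unlike base. By gene the share with all arrays was 19.7%. Without control array 1 they were 1, 2 and 3 for the 3 lists (6.52% of all probes), and without control array 2 they were 1, 3 and 5 (5.98%). Without 60 min array 2 they were 2, 5 and 7 (12.2%), and without 60 min array 1 they were 4, 7 and 7 (16.1%).

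**Figure D4:**
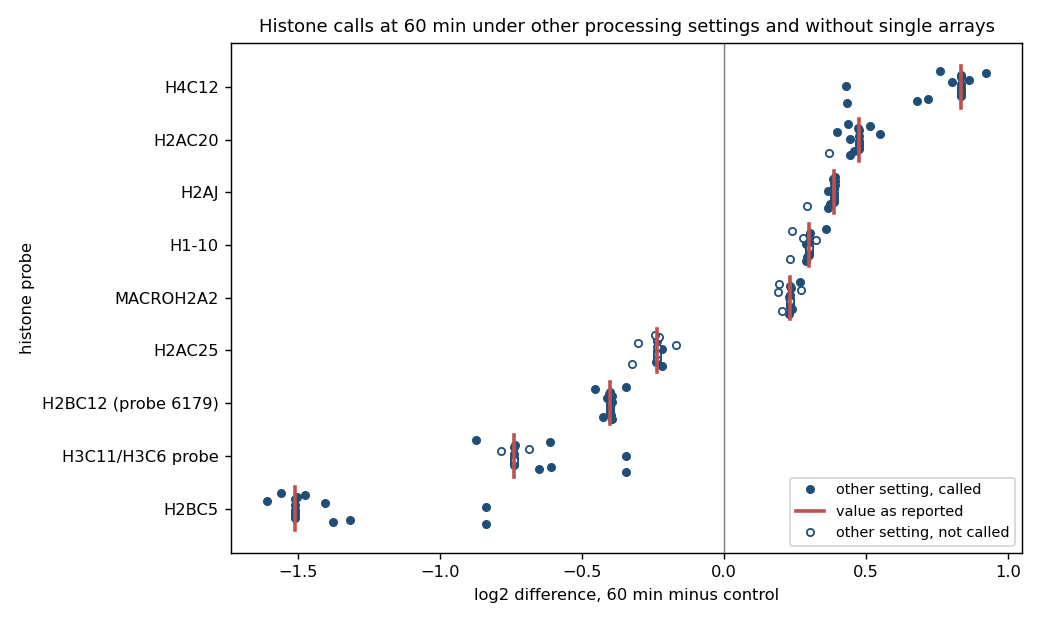
Points are the log2 differences at 60 min against the controls of the histone probes, under the reported setting, the other processing settings and the omission of single arrays. No point crosses 0 for a called probe, and H2BC5 runs from -1.61 to -0.84 while H4C12 runs from 0.43 to 0.92.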

How the data were processed

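Total RNA was amplified to biotinylated cRNA and hybridised, per the labels' protocols. The authors deposited linear probe intensity values, not normalized, with a detection p-value beside each, and a table of processed log2 values. Quantile normalization of the log2 intensities, without background correction, gave those deposited log2 values to within 5e-07. The submitters' processing notes name GenomeStudio 2011.1 and R 2.15.3.

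Here intensities were background-corrected and quantile normalized with neqc (offset 16, with detection p-values standing in for the negative controls) in limma 3.58.1 under R 4.3.3. Each of 22377 detected probes was fitted over all 6 arrays with a mean per group, 3 contrasts and variances following intensity (3 residual degrees of freedom, median prior 9.25), with Benjamini-Hochberg adjustment over all probes. The fit alone was tried on simulated log2 values with independent normal noise. That trial did not cover background correction, normalization or dependence between arrays. An exact permutation test of 2 against 2 arrays cannot go below 0.333. Depth has no meaning for arrays, whose number limits the precision. Symbols came from the platform annotation, updated through RefSeq (30113 probes with 1 symbol, 8 with several, 17202 unnamed here). Promoters were found for 38 of the 39 detected genes.

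The members and lists were chosen with earlier results of these data known. Values in every array are given for H2BC5, H4C12 and each histone gene that passed in any comparison. Of each further list up to 4 passing genes are named, by absolute difference at 60 min, with log2 differences. Replicate numbers were taken as names only: deviations of same-numbered arrays correlated at 0.03, 0.08 and -0.08. Alternatives covered background correction, normalization, filtering, the variance trend, a replicate block, the authors' values and single-array omissions.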

Additional observations from a re-analysis of the deposited data

Results flagged for a closer look

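The effects at 30 and at 60 min, both against the controls, differed for 11 of 46 histone probes (23.9%) by the limma test of 60 against 30 min. The same test called 15.5% of all probes. The log2 difference between the times was -1.44 for H2BC5, -0.998 for the probe shared by H3C11 and H3C6, -0.57 for H2AC18, -0.33 for H2AC25 and -0.31 for H2BC12. It was 0.78 for H4C12, 0.47 for H2AC20, 0.36 for H2AJ, 0.34 for H1-10 and 0.24 for MACROH2A2. For H2AC18 and the shared H3 probe the 30 min value was above the controls (0.39 and 0.26) and the 60 min value below them (-0.18 and -0.74). Of these differences from the controls only the -0.74 passed (adjusted p = 0.0126). The adjusted p was 0.224 and 0.655 at 30 min, and 0.257 for H2AC18 at 60 min. The fitted value of 0.71 for H2BC8 is set against a signal not above background at 30 min, and the bound is at least 1.11-fold. H2BC8 was detected on the 60 min arrays alone and so had to differ.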

How the results depend on the processing

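No called histone difference changed direction under any of the settings or omissions run. With median scaling, which moved the median of all probes at 60 min to -0.045, 4 histone probes were called at 60 min (1 higher and 3 lower, against 5 and 4), 6 from 30 to 60 min (1 higher and 5 lower, against 6 and 5), and 1, 3 and 1 genes of the supply, chaperone and S phase lists (against 6, 10 and 9). The share of all probes called was then 8.1% at 60 min and 7.72% from 30 to 60 min, against 16.3% and 15.5%. Without the variance trend these counts were 5, 3, 0, 0 and 1, beside 4.85% and 3.21% of all probes. With only the 4 arrays compared, 1 histone probe was called at 30 min, beside 0.885% of all probes. Omitting single arrays gave 5 to 9 histone probes at 60 min, 0 to 1 at 30 min and 8 to 11 from 30 to 60 min, and 1 to 4, 2 to 9 and 3 to 8 genes of the 3 lists. The share of all probes then ran from 5.98% to 16.1% at 60 min, 0.0641% to 0.876% at 30 min and 5.92% to 14.4% from 30 to 60 min. The list counts are by gene and the shares by probe, and the cause of these changes was not tested. With the replicate block 9, 0 and 10 histone probes were called at 60 min, at 30 min and from 30 to 60 min, and 6, 10 and 9 genes of the lists. The share of all probes called was then 15.9%, 0.174% and 15.1% in the same order. Of 20 called differences the block kept 19 and ended that of H2BC8 from 30 to 60 min (adjusted p = 0.0515). With it the H2BC5 difference at 60 min was -1.51 (adjusted p = 0.000397). The authors' processed values, no background correction and cyclic loess each kept all 20. Signal over background limits the sizes given for H2BC5, H4C12 and the shared H3 probe, which were -0.84, 0.43 and -0.35 at 60 min without background correction.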
